A study of Mus musculus with 12 samples.

Results

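The effect of dexamethasone (dex) on gene expression was measured in germ cells of the newborn mouse testis. The comparison took in 6 of the 12 libraries of the study, 3 from dex-treated and 3 from saline-treated germ cells. They were chosen by their labels alone, and all genes with enough counts were tested. The other 6 libraries, from somatic cells of the same testes, served to measure somatic RNA in the germ cell libraries.

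All mice, controls included, carried the transgene Tg(Pou5f1-EGFP)2Mnn, also called OCT4-GFP, in which Pou5f1 regulatory sequence drives green fluorescent protein (GFP) in germ cells. Dams received 10 μg of dex per g of body weight, or saline, into the peritoneum at embryonic days E17.5 and E18.5. Their pups were given the matching injection under the skin on the day of birth, PN0, and male pups were collected at PN1. GFP-positive cells were sorted as germ cells and GFP-negative cells as soma, and per the study's methods each replicate pooled testes of several separately dosed litters.

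Dex is a synthetic ligand of the glucocorticoid receptor, a nuclear receptor encoded by Nr3c1 that enters the nucleus on binding ligand and changes the transcription of its target genes. The male germ cells of the newborn testis are prospermatogonia, which rest in mitotic arrest around birth and later give rise to spermatogonial stem cells and the first round of spermatogenesis. In this window they also lay down DNA methylation and hold a set of genes shared with pluripotent cells.

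The total count of a germ cell library lay between 18459692 and 25178477, and a count of 0 allows up to 0.111 to 0.156 CPM depending on the library (CPM are counts relative to the library total, on a common scale). Mitochondrial transcripts took 2.75%, 1.53% and 1.60% of the counts in dex replicates 1, 2 and 3, and 2.85%, 2.59% and 1.86% in saline replicates 1, 2 and 3. Ddx4, an RNA helicase of germ cells, had 598 ± 27.0 CPM in saline and 634 ± 9.15 CPM in dex (mean ± SD, n = 3 each), against 1.38 CPM in saline soma. Dazl, a germ cell RNA-binding protein, had 1176 and 1204 CPM, and Pou5f1, the pluripotency factor whose promoter drives the GFP, had 86.7 and 85.3 CPM. The 12 germ cell markers summed to 3810 to 3888 CPM in saline and 3823 to 4020 CPM in dex germ cells, against 21.0 to 28.2 CPM in the somatic libraries. The libraries thus carried the markers of the labelled cell type at levels that overlapped between the groups. In bulk RNA, fewer cells of a type and less RNA per cell cannot be told apart.

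Somatic RNA was low in both groups and not equal. Amh, a Sertoli cell hormone, stood at 0.571%, 0.793% and 0.666% of its somatic level in saline replicates 1, 2 and 3 and at 0.556%, 0.283% and 0.420% in dex replicates 1, 2 and 3. Every dex library was below every saline library, by the narrowest margin in dex replicate 1. Of 15 Sertoli markers tested, 14 were lower in dex, with a median log2 fold change of -0.48, while of all genes 49.6% were higher and 50.4% lower. None was called by edgeR at an adjusted p of 0.05, 6 had an unadjusted p under 0.05 (of all genes 7.06% were such and higher, 7.69% such and lower) and DESeq2 called 1 (of all genes 1.89% higher, 1.75% lower). Their sum was 536 to 633 CPM in saline and 478 to 569 CPM in dex germ cells, against 8033 to 9326 CPM in soma. Most of the germ cell sum was Dmrt1, at 364 CPM in saline and 323 CPM in dex. That gene was lower in soma, at 123 and 101 CPM, so the sum does not measure Sertoli RNA alone. Leydig cell markers were lower in 6 of 8 with summed levels of 136 to 145 CPM against 128 to 143 CPM, and Insl3 and Lhcgr, which define that cell type, had means of at most 0.175 and 0.0491 CPM. Most of the Leydig sums came from Scarb1 (89.6 and 91.6 CPM in saline and dex) and Fdx1 (32.1 and 32.6 CPM). Stromal markers were higher in 12 of 14, at 284 to 347 CPM in saline and 353 to 368 CPM in dex, with 1 call, Ptch1. Without Ptch1 the stromal sums were 161 to 212 CPM in saline and 193 to 205 CPM in dex, which overlap. Endothelial sums were 85.5 to 89.0 and 80.5 to 93.0 CPM, macrophage sums 9.33 to 13.7 and 14.7 to 17.2 CPM, lymphocyte sums 7.05 to 8.0 and 5.40 to 10.0 CPM, and erythroid sums 7.67 to 9.46 and 4.37 to 7.54 CPM. The higher macrophage sums in dex came from Mrc1, with means of 6.13 and 11.4 CPM. Each other macrophage marker had a lower mean in dex, such as Csf1r (0.480 and 0.366 CPM) and C1qa (0.320 and 0.0493 CPM). To place each gene against this, its somatic level was multiplied by the Amh share of the same treatment, and the product is called its somatic part. It rests on Amh alone, which stood at 0.677% of its somatic mean in saline. Other Sertoli markers gave other shares in saline, such as 0.586% for Rhox8, 1.31% for Clu and 1.56% for Gata4. The stromal marker Acta2 gave 0.320%. Counts built on the somatic part therefore depend on the marker chosen.

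Among the 231 genes called below, the somatic part, as scaled by Amh, was under 1% of the germ cell level in both groups for 164 genes. It reached 10% of that level in a group for 5. Gstm2, a glutathione transferase, fell with a somatic part of 9.03 CPM in saline and 5.10 CPM in dex, against 12.3 and 4.45 CPM measured. Inha, the inhibin alpha subunit of Sertoli cells, fell from 14.2 to 7.65 CPM with somatic parts of 8.34 and 4.39 CPM. Agtr2, an angiotensin receptor chosen after its values were seen, rose from 1.02 to 3.56 CPM with somatic parts of 1.01 and 1.59 CPM. Kcns2 and Nrbp2, a potassium channel subunit, likewise chosen, and a pseudokinase, fell with somatic parts of at most 15.7% and 13.7% of the germ cell level. For Gstm2 and Inha the somatic part came to 73.6% and 58.6% of the saline level, and the part of carry-over in these 5 calls was not tested further. Gstm2 kept its call with each library left out, whereas Inha, Agtr2, Kcns2 and Nrbp2 lost theirs in 3, 4, 4 and 2 of the 6 fits that left out 1 library, with adjusted p by edgeR up to 0.111 (without saline replicate 2), 0.154 (saline replicate 1), 0.196 (saline replicate 2) and 0.0605 (dex replicate 3).

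**Figure D1:**
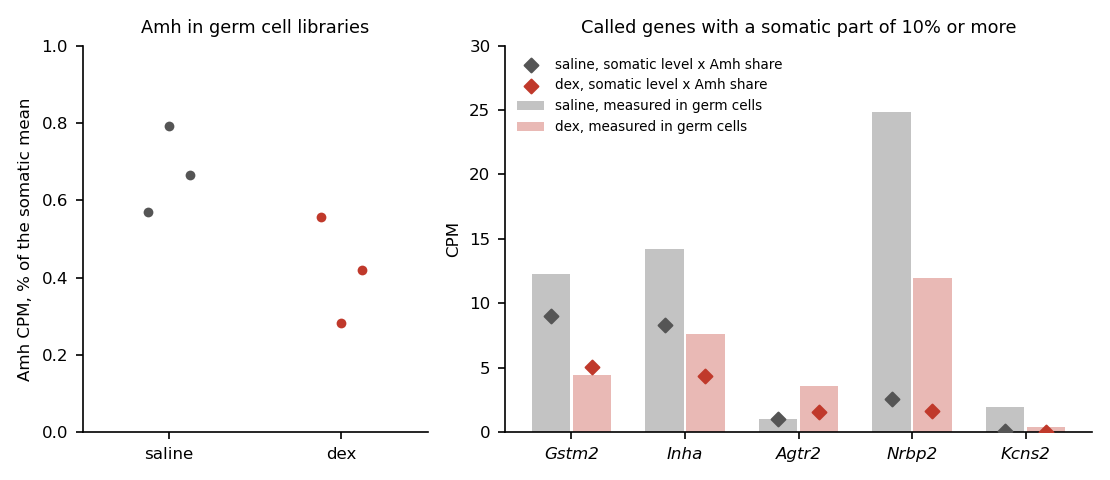
Left, Amh in each germ cell library as percent of its mean CPM in the somatic libraries of the same treatment, 3 libraries a group. Right, mean CPM measured in germ cells (bars) and the somatic part (diamonds) for the 5 called genes whose somatic part reached 10%: for Gstm2 and Inha the diamonds reach 9.03 and 8.34 CPM in saline.

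Dex changed a small share of the germ cell transcriptome, in both directions. Of 18550 genes tested with edgeR, 231 (1.25%) had an adjusted p at or under 0.05, 137 higher in dex (0.739%) and 94 lower (0.507%). Most changes were modest: the median log2 fold change was 0.63 among the genes called higher and -0.53 among those called lower, and 31 genes rose and 20 fell by at least 1 on the log2 scale. The median over all genes tested was -0.0027. The dex libraries lay above all saline libraries for 10.5% of the genes tested and below them for 9.55%, so groups that do not overlap were common among genes that were not called. Among the 231 called genes, 139 were at least as high in saline germ cells as in saline soma (60.2%, against 56.9% of all genes tested).

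These counts leaned on single libraries. With saline replicate 1 left out 49 genes were called, and with saline replicate 2 left out 75. Leaving out dex replicate 3 gave 102 genes, dex replicate 1 gave 115, saline replicate 3 gave 213 and dex replicate 2 gave 265. Without dex replicate 2 the balance turned, with 114 called higher and 151 lower (43.0% higher), and 37 genes (26 higher, 11 lower) were called in all 6 fits that left out 1 library. Scaled by library totals in place of trimmed means, 149 genes were called higher and 66 lower, which moved the share of higher calls from 59.3% to 69.3%. DESeq2 called 350 genes higher and 324 lower, and without the filter on low counts edgeR called 366 higher and 401 lower.

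**Figure D2:**
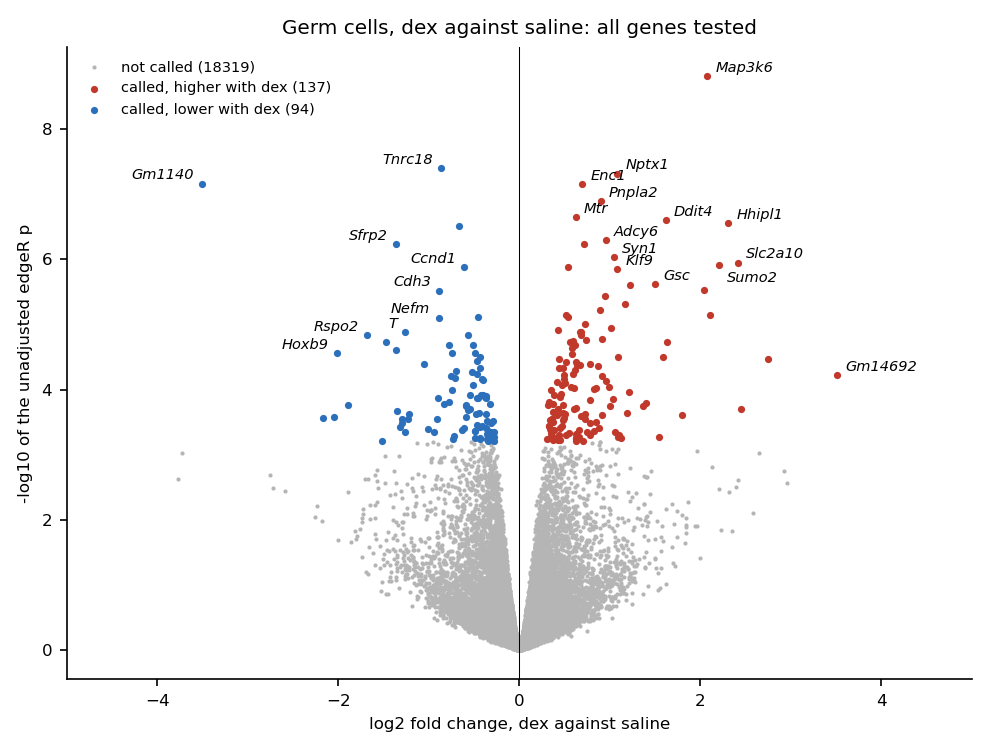
Each point is a gene tested in germ cells, with the log2 fold change of dex against saline on the horizontal axis and -log10 of the unadjusted edgeR p on the vertical axis. Red points are the 137 genes called higher and blue points the 94 called lower, with Map3k6 at the top of the plot.

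The first question was whether genes known to answer glucocorticoids in other tissues answered here. Nr3c1 itself, the receptor, had 91.1, 97.5 and 97.0 CPM in saline replicates 1, 2 and 3 and 80.8, 92.8 and 91.8 CPM in dex replicates 1, 2 and 3, which overlap (log2 fold change -0.11 ± 0.08 SE, adjusted p = 0.586 by edgeR). Of 24 glucocorticoid response genes tested, 3 rose (Ddit4, Klf9 and Tgm2) and 1 fell (Tsc22d3), which is 16.7% called against 1.25% of all genes, and the median of the list was 0.10. The remaining 20 did not pass the edgeR test, among them Per1 at 0.10 ± 0.09 and Sgk1 at 0.26 ± 0.09, a clock gene and a serum- and glucocorticoid-regulated kinase. Sgk1 passed it without saline replicate 3 (adjusted p = 0.0484 by edgeR). DESeq2 called 5 of the 24 (3.63% of all genes), adding Glul, glutamine synthetase, as lower. The list median turned to -0.0028 when only genes at least as high in germ cells as in soma were kept.

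Ddit4, an inhibitor of mTORC1, had 28.9, 32.3 and 48.8 CPM in the saline libraries and 88.8, 141 and 109 CPM in the dex libraries. All dex values lay above all saline values, with saline replicate 3 the highest control, and the rise was 3.06-fold (log2 fold change 1.61 ± 0.18, adjusted p = 0.00057 by edgeR). Klf9, a zinc finger transcription factor, went from 17.9, 15.8 and 20.2 CPM to 36.9, 44.7 and 33.0 CPM. The groups stood well apart, at 2.11-fold (1.08 ± 0.14, adjusted p = 0.0014 by edgeR). Both kept their calls in every fit that left out 1 library. Tgm2, a transglutaminase, rose from 10.6 ± 1.92 to 17.8 ± 1.94 CPM (0.74 ± 0.17, adjusted p = 0.0436 by edgeR), but lost the call in 5 of those 6 fits (all but that without saline replicate 3, up to 0.205 without saline replicate 1), and 8.03% of its exon length is overlapped by Rprd1b.

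Tsc22d3 encodes GILZ, a leucine zipper protein that is a standard glucocorticoid-induced gene of lymphoid and other somatic cells. In these germ cells its values were 205, 213 and 195 CPM in saline and 159, 149.8 and 166 CPM in dex. Every dex library was lower than every saline library, and the gene fell by 0.37 on the log2 scale (SE 0.07, adjusted p = 0.0225 by edgeR). Its mean in the somatic libraries was 40.5 CPM in saline and 81.3 CPM in dex, the opposite direction. The fall in germ cells was not called without saline replicate 1 (adjusted p = 0.116), without saline replicate 2 (0.132) or without dex replicate 1 (0.0735). Zbtb16, a regulator of spermatogonial stem cells that glucocorticoids also induce in other tissues, had 342 ± 26.2 CPM in saline and 299 ± 12 CPM in dex germ cells (-0.20 ± 0.07, adjusted p = 0.199 by edgeR), and 1.19 and 18.7 CPM in saline and dex soma.

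The gene with the smallest p in the whole comparison was Map3k6 (ENSMUSG00000028862, chromosome 4, 133240818 to 133252929 on GRCm38), a MAP kinase kinase kinase of the stress-activated pathways. It had 14.1, 12.8 and 17.7 CPM in the saline libraries and 52.6, 78.1 and 58.3 CPM in the dex libraries. The lowest dex library held about 3 times the highest saline library, and the mean rise was 4.22-fold (log2 fold change 2.08 ± 0.16, adjusted p = 2.86e-05 by edgeR). Its somatic part was at most 0.257% of the germ cell level. Slc2a10 (ENSMUSG00000027661, chromosome 2, 165503787 to 165519917), which encodes the glucose transporter GLUT10 and was chosen after its values were seen, went from 0.613, 0.990 and 0.952 CPM to 4.29, 4.51 and 4.88 CPM. The separation was again complete and even across libraries, at 5.33-fold (2.42 ± 0.30, adjusted p = 0.00136 by edgeR). Both calls held in every fit that left out 1 library.

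The promoters of these 4 risen genes are printed because the receptor acts through DNA. Each holds 250 bases before and 50 after the start site in RefSeq on GRCm38.p6, and capitals mark matches to the core of the receptor's palindromic binding site, ACANNNTGT, which reads the same on both strands and lies within the full glucocorticoid response element.
Map3k6, chr4:133240568-133240867, plus strand: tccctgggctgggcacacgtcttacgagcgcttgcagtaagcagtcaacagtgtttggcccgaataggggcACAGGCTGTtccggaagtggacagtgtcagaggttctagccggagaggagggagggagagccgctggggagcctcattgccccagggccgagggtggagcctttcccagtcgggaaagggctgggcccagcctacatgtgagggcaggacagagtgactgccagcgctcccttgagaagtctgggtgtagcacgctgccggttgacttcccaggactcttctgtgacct
Slc2a10, chr2:165503647-165503946, plus strand: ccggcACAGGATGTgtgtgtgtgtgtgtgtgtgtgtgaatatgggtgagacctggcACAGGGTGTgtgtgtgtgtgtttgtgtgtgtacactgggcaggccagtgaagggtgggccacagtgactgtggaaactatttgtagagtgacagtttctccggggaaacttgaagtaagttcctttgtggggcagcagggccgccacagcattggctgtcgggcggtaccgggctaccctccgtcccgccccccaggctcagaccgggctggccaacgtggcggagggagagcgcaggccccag
Ddit4, chr10:59951721-59952020, minus strand: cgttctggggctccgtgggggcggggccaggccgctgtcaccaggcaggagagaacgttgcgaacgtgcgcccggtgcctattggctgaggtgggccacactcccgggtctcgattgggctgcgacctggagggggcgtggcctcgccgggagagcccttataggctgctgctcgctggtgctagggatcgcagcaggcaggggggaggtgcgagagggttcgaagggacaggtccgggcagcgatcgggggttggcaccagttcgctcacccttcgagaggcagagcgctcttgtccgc
Klf9, chr19:23140976-23141275, plus strand: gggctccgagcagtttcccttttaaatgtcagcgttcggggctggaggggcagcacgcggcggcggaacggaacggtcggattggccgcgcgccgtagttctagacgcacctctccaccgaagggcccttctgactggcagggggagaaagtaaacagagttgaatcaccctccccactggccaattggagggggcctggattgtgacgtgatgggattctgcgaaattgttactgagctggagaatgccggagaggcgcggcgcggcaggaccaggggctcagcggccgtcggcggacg
The Map3k6 window holds 1 core match, which begins at position -179 from the start site, and the Slc2a10 window holds 2, at -245 and -194, both running into a stretch of GT repeats. No match lies in the windows of Ddit4 and Klf9, which says only that these letters are not in these 300 bases. The core is found in 6.85% of all 32851 promoters of this length in the table, and the full element, which contains the core, in 0.00913%. Promoters were matched for 98 of the 137 genes called higher and 69 of the 94 called lower, too few for a comparison over the called genes. Among those matched the core was found in 6 of the 98 (6.12%) and 3 of the 69 (4.35%), beside 686 of the 12709 matched among all genes tested (5.40%).

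In the kinase pathways around Map3k6 and Ddit4, single genes were called. Among 44 genes of the MAP kinase cascades, Map3k6 rose and Mapk12, the p38 gamma kinase, fell (4.5% called, against 1.25% of all genes). Mapk12 had 52.2, 45.6 and 60.6 CPM in saline and 29.5, 36.2 and 29.2 CPM in dex, without overlap (-0.74 ± 0.12, adjusted p = 0.00959 by edgeR), and lost the call without saline replicate 1 (0.0623) or dex replicate 3 (0.0573). None of 23 feedback inhibitors of MAP kinases was called by edgeR, while 6 had an unadjusted p under 0.05 (14.7% of all genes). DESeq2 called 3 of the 23, Dusp9, Dusp4 and Dusp2 (3.63% of all genes). Among 47 genes of the PI3K, mTOR and FoxO pathway, Ddit4 and Pik3r1 rose and none fell (4.3% called), and the median was 0.04. Pik3r1, the p85 alpha regulatory subunit of PI3 kinase, rose from 46.5 ± 2.59 to 70.7 ± 5.74 CPM (0.60 ± 0.10, adjusted p = 0.00759 by edgeR; 0.0662 without saline replicate 1). Nuak1, a kinase related to AMPK, rose from 11.1, 13.1 and 12.3 CPM to 20.6, 31.9 and 29.6 CPM. Its lowest dex library was well above every saline library, and it kept its call in all 6 fits that left out 1 library (1.17 ± 0.17, adjusted p = 0.00358 by edgeR). Fgfr1, a receptor for fibroblast growth factors, was the only call among 48 receptor tyrosine kinases and ligands (2.08% called), at 94.7 ± 3.35 CPM in saline and 129 ± 8.07 CPM in dex (adjusted p = 0.0123 by edgeR). Its call was lost without saline replicate 1 (0.0662), saline replicate 2 (0.0665) or dex replicate 3 (0.0615).

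**Figure D3:**
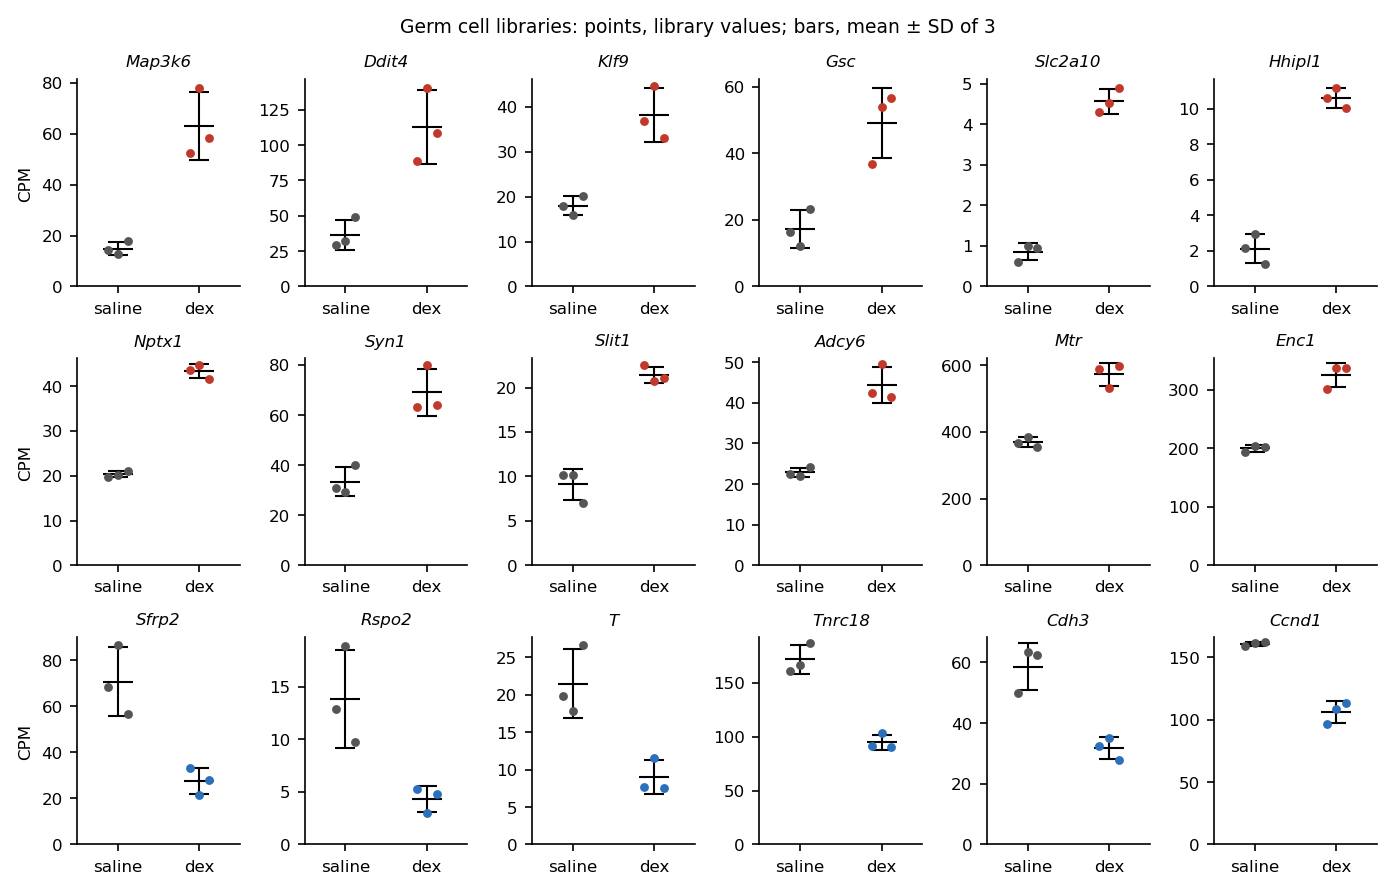
CPM of 18 called genes in the germ cell libraries, a panel a gene, each on its own axis from 0, with saline in grey and dex in red for genes that rose and blue for genes that fell. Points are the 3 libraries of a group and bars the mean ± SD; in every panel the groups are apart, as for Map3k6 at 12.8 to 17.7 against 52.6 to 78.1 CPM.

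Genes best known from neurons and secretory cells were found among the risen genes. The list of 55 synapse and neurosecretory genes was drawn up after the calls had been seen, so its count is a description: 8 rose and none fell (14.5% called, against 1.25% of all genes), 36 were higher and 19 lower, and the median was 0.10. Nefm and Tagln3, also known from neurons, were called lower (-0.89 and -1.32) and are not on the list, so that none fell reflects its choice. Nptx1 (ENSMUSG00000025582, chromosome 11, 119538719 to 119547753), a neuronal pentraxin secreted at synapses, had 19.8, 20.2 and 21.1 CPM in saline and 43.7, 44.7 and 41.5 CPM in dex. The libraries within each group were nearly level and the gene rose 2.12-fold (1.08 ± 0.11, adjusted p = 0.000264 by edgeR). In saline soma it had 0.273 CPM. Syn1, a protein of synaptic vesicles, went from 30.9, 29.1 and 40.0 CPM to 63.2, 79.9 and 64.1 CPM. The groups did not overlap (1.04 ± 0.13, adjusted p = 0.00125 by edgeR), and 0.273% of the exon length of Syn1 is shared with Araf. Slc32a1, the vesicular transporter of GABA, rose from 0.876, 0.781 and 1.05 CPM to 4.66, 3.40 and 3.72 CPM and was at 0 in soma of both treatments. Its rise of 4.30-fold was uniform over the dex libraries (2.11 ± 0.31, adjusted p = 0.0047 by edgeR).

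These 3 genes kept their calls whichever library was left out. The other 5 were Sv2c, Dlgap4, Lrfn3, Scg5 and Sez6l2, a vesicle glycoprotein, a postsynaptic scaffold, a synaptic adhesion protein, the 7B2 chaperone of a prohormone convertase and a neuronal membrane protein. Their log2 fold changes ran from 0.38 ± 0.08 for Dlgap4 to 1.10 ± 0.25 for Scg5, with adjusted p of 0.0117 to 0.0476 by edgeR. Sv2c lost its call without saline replicate 1 (0.0595), saline replicate 2 (0.0699) or dex replicate 3 (0.0664), Dlgap4 kept its call only without saline replicate 3, and Lrfn3, Scg5 and Sez6l2 lost theirs in all 6 such fits, with adjusted p up to 0.16, 0.199 and 0.163.

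Axon guidance ligands behaved in part alike. Slit1, a secreted ligand of Robo receptors, had 10.1, 10.2 and 7.05 CPM in saline and 22.5, 20.7 and 21.0 CPM in dex. It rose 2.34-fold with no overlap (1.23 ± 0.16, adjusted p = 0.00217 by edgeR) and in every fit that left out 1 library. Slit3 rose from 70.5 ± 5.92 to 98.0 ± 4.38 CPM, and Reln, the large secreted ligand reelin, from 145 ± 14.1 to 202 ± 26.5 CPM (adjusted p = 0.0176 and 0.031 by edgeR). Both were called in only 2 of the 6 fits with a library left out, with the highest adjusted p without saline replicate 1 (0.119 and 0.183). The remaining 16 of 19 Slit, Robo and reelin genes did not pass the edgeR test and the median was -0.0065, a sign that turned in 6 of 15 alternatives. Nefm, a neurofilament subunit chosen after its values were seen, moved the other way, from 133, 126 and 159.9 CPM to 66.2, 95.7 and 64.6 CPM. The fall was complete across libraries and held with each left out (-0.89 ± 0.13, adjusted p = 0.00471 by edgeR).

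Genes of cyclic AMP and calcium signalling were also found among the risen genes. The list of 56 genes tested was again drawn up with the called genes in view, so its counts describe the choice as well as the data: 8 rose and none fell (14.3% called, against 1.25% of all genes), 43 were higher and 13 lower, and the median was 0.17. Adcy6, an adenylyl cyclase that makes cyclic AMP, had 22.5, 22 and 24.1 CPM in saline and 42.3, 49.5 and 41.5 CPM in dex. Every dex library was far above every saline library, at 1.94-fold (0.95 ± 0.11, adjusted p = 0.000837 by edgeR). Akap12, an anchor protein that tethers the cyclic AMP-dependent kinase, went from 94.8, 101 and 85.3 CPM to 143, 165 and 157 CPM. All dex libraries were again the higher ones (0.72 ± 0.09, adjusted p = 0.000837 by edgeR), with a somatic part of 3.33% in saline and 1.44% in dex. Atp2b4, a calcium pump of the plasma membrane, rose from 162, 172 and 161 CPM to 235, 252 and 235 CPM (0.54 ± 0.07, adjusted p = 0.00136 by edgeR).

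Adcy6, Akap12 and Atp2b4 kept their calls in all 6 fits that left out 1 library. Ryr3, a calcium release channel, rose from 12.6 ± 0.725 to 23.9 ± 3.31 CPM (0.91 ± 0.15, adjusted p = 0.00747 by edgeR; 0.0623 without saline replicate 1), and 4.83% of its exon length is shared with Aven. Cacnb3 and Cacna1h, subunits of voltage-gated calcium channels, Plcd1, a phospholipase C, and Akap13, an anchor protein, rose by 0.32 to 0.62 on the log2 scale. Their adjusted p were 0.0113, 0.0346, 0.0191 and 0.0263 by edgeR. The calls were lost in 3, 6, 4 and 5 of those fits, for all 4 genes without saline replicate 1, saline replicate 2 or dex replicate 3, and the highest adjusted p were 0.0639 for Cacnb3 (without dex replicate 3), 0.179 for Cacna1h (saline replicate 1), 0.117 for Plcd1 (saline replicate 2) and 0.128 for Akap13 (saline replicate 1).

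The next question was whether the identity and state of the germ cells changed. Among 45 genes of prospermatogonia and spermatogonial stem cells, 22 were higher and 23 lower with a median of -0.06, 3 rose (Tfap2c, Utf1 and Cdh1) and 4 fell (T, Lin28a, Bcl6b and Uchl1), so 15.6% of the list was called without a common direction. The sign of that small median turned under limma-voom, on FPKM and with the replicate block. T (ENSMUSG00000062327, chromosome 17, 8434423 to 8442496), the T-box factor brachyury, had 19.9, 17.9 and 26.7 CPM in saline and 7.74, 11.6 and 7.58 CPM in dex. It fell in every dex library, to 0.417 of the saline level (-1.26 ± 0.20, adjusted p = 0.00669 by edgeR), kept its call with each library left out and was at 0 in soma. Tfap2c, the AP-2 gamma factor of early germ cells, went the other way, from 24.4, 17.4 and 29.3 CPM to 44.9, 46.2 and 40.1 CPM. The lowest dex library was far above the highest saline library (0.87 ± 0.15, adjusted p = 0.012 by edgeR), and the call was lost without saline replicate 1 (0.0731).

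Lin28a, an RNA-binding protein that blocks let-7 maturation, had 199, 218 and 220.4 CPM in saline and 161, 171 and 153 CPM in dex (-0.40 ± 0.07, adjusted p = 0.0159 by edgeR). Bcl6b, a transcriptional repressor that supports stem cell self-renewal, fell from 156 ± 18.4 to 115 ± 6.71 CPM, and Uchl1, a ubiquitin hydrolase abundant in spermatogonia, from 631 ± 59.1 to 490.4 ± 27.9 CPM (adjusted p = 0.0233 and 0.0316 by edgeR). Utf1, a chromatin protein of pluripotent cells and early spermatogonia, rose from 22.8 ± 3.05 to 33.5 ± 1.43 CPM, and Cdh1, E-cadherin, from 118 ± 25.2 to 168 ± 3.31 CPM (adjusted p = 0.0448 and 0.0457 by edgeR). All 5 calls were weak: they were lost in 4 or 5 of the 6 fits that left out 1 library, with the highest adjusted p without saline replicate 2 for Lin28a (0.093) and Uchl1 (0.143) and without saline replicate 1 for Bcl6b (0.118), Utf1 (0.224) and Cdh1 (0.229).

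The other members of the list did not pass the edgeR test. DESeq2 called 11 of the 45 (3.63% of all genes), adding Gfra1, Tex101 and Neurog3 as higher and Id4 as lower. Ret, the receptor for GDNF, had 766 ± 46.5 CPM in saline and 878 ± 17.1 CPM in dex (adjusted p = 0.171 by edgeR), and its co-receptor Gfra1 had 366 ± 41.1 and 469 ± 52.2 CPM (0.35 ± 0.09, adjusted p = 0.0809 by edgeR; 0.0213 without dex replicate 2). Id4, an inhibitor of bHLH factors in stem cells, stood at -0.33 ± 0.10, and Kit, the receptor of differentiating spermatogonia, at -0.25 ± 0.08 on the log2 scale (adjusted p = 0.107 and 0.137 by edgeR). In the lists of 27 piRNA pathway genes and 39 meiosis genes none was called by edgeR, with changes of -0.29 to 0.30 and -0.37 to 0.35. An unadjusted p under 0.05 was found for 3 and 5 of them (14.7% of all genes), and DESeq2 called 1 and 0. Of 22 pluripotency genes, Utf1 and Mycn rose and Lin28a fell. Mycn, the N-Myc factor, had 51.2, 46.2 and 47.5 CPM in saline and 65.0, 67.9 and 67.7 CPM in dex (0.46 ± 0.09, adjusted p = 0.0222 by edgeR), and lost its call without saline replicate 1 (0.0731), saline replicate 2 (0.119), dex replicate 1 (0.052) or dex replicate 3 (0.0752).

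Both genes that maintain DNA methylation and 1 of the de novo enzymes were lower in dex. Dnmt1, the maintenance methyltransferase, had 871, 819 and 840.5 CPM in saline and 673, 680.4 and 735 CPM in dex. Uhrf1, which brings it to replicated DNA, had 602, 577 and 594 CPM against 454, 505 and 504 CPM. Dnmt3b, a de novo enzyme, had 139, 119 and 122 CPM against 101, 101 and 97.4 CPM. In all 3 genes every dex library was below every saline library, and they fell by 0.28 ± 0.06, 0.28 ± 0.06 and 0.35 ± 0.08 on the log2 scale (adjusted p = 0.0436, 0.0495 and 0.0495 by edgeR). Dnmt3a, another de novo enzyme, had 312 ± 21.7 CPM in saline and 339 ± 28.8 CPM in dex (adjusted p = 0.526 by edgeR), and the cofactor Dnmt3l had 16.9 ± 6.04 and 22.6 ± 6.84 CPM (adjusted p = 0.44 by edgeR). Over the list of 22 genes, 3 fell and none rose (13.6% called), with a median of 0.01 that turned sign without dex replicate 1 or saline replicate 3. Each call sat just under the threshold: Dnmt1 and Dnmt3b lost it in all 6 fits that left out 1 library (0.0557 to 0.208 and 0.0571 to 0.254), and Uhrf1 in all but that without dex replicate 2 (up to 0.212 without saline replicate 1). Of the sequence of Uhrf1 11.3% is shared with other genes, so its level is uncertain, and of that of Dnmt3b 7.57%. The main partners are the locus Gm5648 and Dnmt3c.

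**Figure D4:**
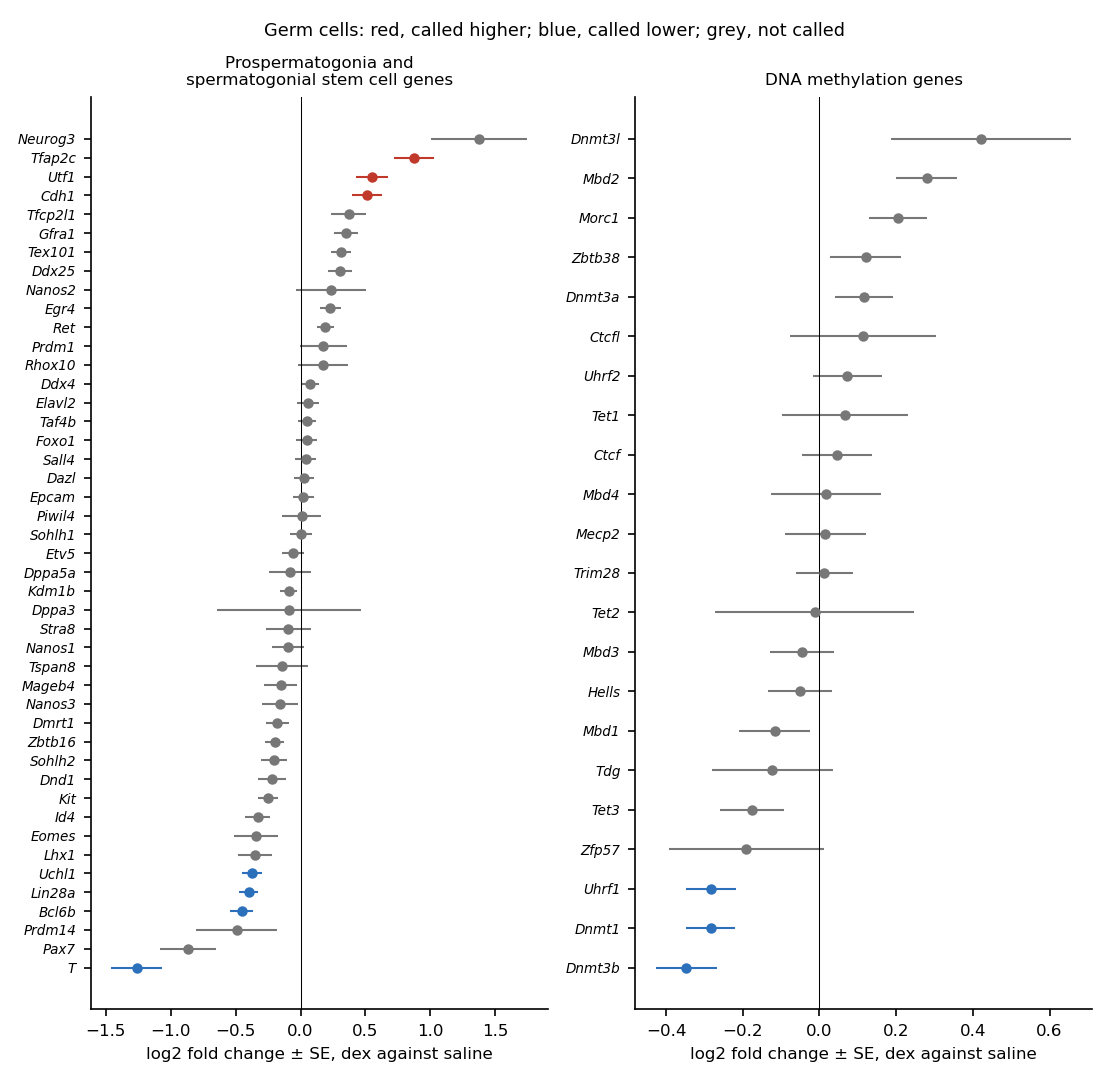
Log2 fold change of dex against saline ± SE in germ cells for the 45 genes of prospermatogonia and spermatogonial stem cells (left) and the 22 DNA methylation genes (right), red where called higher, blue where called lower and grey where not called. T at -1.26 and Tfap2c at 0.87 stand furthest out among the called genes, while Dnmt1, Uhrf1 and Dnmt3b lie at -0.28 to -0.35.

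Secreted Wnt modulators moved in both directions. Wnt signals are tuned outside the cell by R-spondins, which strengthen them, and by secreted Frizzled-related proteins, which bind the ligands. Of 65 Wnt pathway genes tested, 2 fell (Sfrp2 and Rspo2) and 2 rose (Frzb and Rspo4), all 4 of these 2 kinds (6.15% called), and the median was 0.07. Sfrp2 (ENSMUSG00000027996, chromosome 3, 83766321 to 83774316) had 68.5, 86.7 and 56.9 CPM in saline and 33.1, 21.7 and 28.1 CPM in dex. Its highest dex library was below its lowest saline library, at 0.388 of the saline level (-1.36 ± 0.16, adjusted p = 0.000837 by edgeR). Rspo2 had 12.9, 18.9 and 9.71 CPM against 5.30, 2.96 and 4.79 CPM. The saline libraries scattered widely, and the fall to 0.312 of their mean still separated the groups (-1.68 ± 0.26, adjusted p = 0.00679 by edgeR). Both calls held with each library left out, and both genes were lower in soma, at 6.71 and 0.319 CPM. Frzb, a relative of Sfrp2, rose from 6.56 ± 1.53 to 12.1 ± 0.389 CPM, and Rspo4 from 37.3 ± 1.32 to 50.1 ± 1.95 CPM (adjusted p = 0.0413 and 0.0487 by edgeR). Frzb was called in 1 and Rspo4 in none of the 6 fits that left out a library, with adjusted p up to 0.18 and 0.223 without saline replicate 1.

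In Hedgehog and TGF-beta signalling, single genes were called. Hhipl1, which resembles the Hedgehog-interacting protein, had 2.15, 2.97 and 1.29 CPM in saline and 10.6, 11.2 and 10.1 CPM in dex. The dex libraries were nearly level and 4.96-fold higher (2.31 ± 0.26, adjusted p = 0.00057 by edgeR). Ptch1, the Hedgehog receptor, rose from 126 ± 8.23 to 162 ± 4.75 CPM (0.35 ± 0.08, adjusted p = 0.0351 by edgeR), a call kept in 1 of the 6 fits that left out a library (without dex replicate 2), with adjusted p up to 0.199 without saline replicate 1. It is also in the list of stromal markers, whose other members had sums that overlapped between the groups, as given above. Hhipl1 and Ptch1 were the only calls among 41 Hedgehog and Notch genes (4.88% called, against 1.25% of all genes). The median of that list turned sign in 2 of 15 alternatives. Of 51 TGF-beta, BMP and activin genes, Inha and Tgfb1 fell (3.92% called). Tgfb1, the ligand, had 112, 92.2 and 136 CPM in saline and 61.7, 78.5 and 70.3 CPM in dex. The groups did not overlap (-0.70 ± 0.12, adjusted p = 0.0132 by edgeR), and the call was lost without saline replicate 1 (0.0715), dex replicate 1 (0.0568) or dex replicate 3 (0.0639).

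Adhesion and cytoskeletal genes were called in both directions within each list. Of 45 integrins, laminins and cadherins, 3 rose (Lamb1, Lama3 and Cdh1) and 1 fell (Cdh3), with 28 higher, 17 lower and a median of 0.10 (8.89% called). Cdh3, P-cadherin, had 49.8, 63.5 and 62.5 CPM in saline and 32.5, 35 and 27.9 CPM in dex, while Cdh1 rose as given above. The fall of Cdh3 was clear of the spread and kept with each library left out (-0.89 ± 0.12, adjusted p = 0.00246 by edgeR). Lamb1, a laminin chain of basement membranes, had 326, 344 and 368 CPM in saline and 463, 462 and 476 CPM in dex. All dex libraries were higher (0.43 ± 0.07, adjusted p = 0.00661 by edgeR; 0.063 without saline replicate 1). Lama3, another laminin chain, rose from 77.4 ± 6.48 to 105 ± 6.52 CPM (adjusted p = 0.0287 by edgeR), and was called in 2 of the 6 fits with a library left out (up to 0.15 without saline replicate 2). Cd9, a tetraspanin of the cell surface, rose from 119.5, 118 and 119 CPM to 168, 159 and 185 CPM. It held in all 6 such fits (0.51 ± 0.08, adjusted p = 0.0047 by edgeR).

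Among 47 actin regulators, listed after the calls were seen, 5 fell and 1 rose (12.8% called, against 1.25% of all genes), and 30 were lower with a median of -0.09. Msn, moesin, which links actin to the membrane, fell from 172, 149 and 183 CPM to 113, 121 and 121 CPM, without overlap (-0.51 ± 0.08, adjusted p = 0.00798 by edgeR; 0.0662 without saline replicate 1). Pfn1, profilin, fell from 306 ± 7.84 to 230.1 ± 26.9 CPM, and Arpc3, a subunit of the Arp2/3 complex, from 182 ± 21.2 to 133 ± 13.1 CPM (adjusted p = 0.0223 and 0.031 by edgeR). Fhod1, a formin, and Marcksl1 fell by 0.49 and 0.30 on the log2 scale, while Diaph1, another formin, rose by 0.35 (adjusted p = 0.0432, 0.0495 and 0.0449 by edgeR). These last 5 calls were lost in 3 to 6 of the 6 fits with a library left out, with the highest adjusted p without saline replicate 1 for Pfn1 (0.115), Fhod1 (0.189) and Diaph1 (0.188), without saline replicate 2 for Marcksl1 (0.215) and without dex replicate 3 for Arpc3 (0.117). Enc1, an actin-binding kelch protein outside the list, had 193, 204 and 203 CPM in saline and 301, 337 and 337 CPM in dex. Its lowest dex library was far above its highest saline library (0.69 ± 0.07, adjusted p = 0.000264 by edgeR), and the call was kept throughout.

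Among metabolic genes the rises were of single genes, with few calls in the lists around them. Mtr (ENSMUSG00000021311, chromosome 13, 12182712 to 12258113), the B12-dependent methionine synthase, had 368, 386 and 356 CPM in saline and 587, 532 and 597 CPM in dex. Every dex library was well above the saline libraries, at 1.54-fold (0.62 ± 0.07, adjusted p = 0.00057 by edgeR). It was the only edgeR call among 34 one-carbon, methionine and serine genes (2.94% called, against 1.25% of all genes), of which 20 were lower, and DESeq2 called 5 (3.63% of all genes). Tcn2, transcobalamin 2, which carries vitamin B12 in blood and was chosen after its values were seen, rose from 42.9, 47.3 and 47.2 CPM to 76.0, 68.1 and 63.2 CPM (0.59 ± 0.10, adjusted p = 0.00973 by edgeR; 0.0809 without saline replicate 1). Pnpla2, the lipase that starts triglyceride breakdown, had 43.6, 45.0 and 46.5 CPM in saline and 76.5, 93.1 and 83.2 CPM in dex. The gene, chosen after its values were seen, rose 1.86-fold and in every fit with a library left out (0.90 ± 0.09, adjusted p = 0.0004 by edgeR). Apoa1, the main protein of high-density lipoprotein, was the only call among 23 apolipoprotein and lipoprotein genes (4.35% called), from 3.2, 2.76 and 2.71 CPM to 7.33, 12.9 and 6.70 CPM. Dex replicate 2 was the highest, all dex libraries were above saline, and the call held throughout (1.63 ± 0.26, adjusted p = 0.00759 by edgeR). Of 34 fatty acid oxidation genes, 25 were higher with a median of 0.15. None was called by edgeR or DESeq2, and 5 had an unadjusted p under 0.05, all higher (7.06% of all genes were such and higher).

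Of 275 solute carriers tested from a list drawn up after the calls were seen, 7 rose and none fell (2.55% called, against 1.25% of all genes). Beside Slc2a10 and Slc32a1 these were Slc4a11, Slc2a1, Slc38a4, Slc45a1 and Slc6a6. Slc2a1, the glucose transporter GLUT1, had 41.7, 42.0 and 39.9 CPM in saline and 55.5, 59.5 and 61.0 CPM in dex, without overlap (0.50 ± 0.09, adjusted p = 0.017 by edgeR). It was the only edgeR call among 36 glycolysis and pyruvate genes, of which DESeq2 called 2 (3.63% of all genes). Slc38a4, an amino acid transporter, rose from 40.7 ± 1.88 to 60.8 ± 7.55 CPM (adjusted p = 0.0187 by edgeR). Slc4a11, of the bicarbonate transporter family, Slc45a1, a sugar transporter, and Slc6a6, the taurine transporter, rose by 0.61, 0.99 and 0.62 on the log2 scale (adjusted p = 0.00792, 0.0187 and 0.0287 by edgeR). All 5 lost their calls without saline replicate 1 (0.0662 to 0.167) and without saline replicate 2 (0.0505 to 0.132), Slc2a1 and Slc45a1 also without dex replicate 3 (0.074 and 0.0662), Slc38a4, Slc45a1 and Slc6a6 without dex replicate 1 (0.0647 to 0.0941) and Slc6a6 without dex replicate 2 (0.0645). Slc35f3, a solute carrier outside the list, was also called higher, at 12.1 CPM in saline and 19.2 CPM in dex (adjusted p = 0.0429 by edgeR).

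Among 39 lysosomal hydrolases, also listed after the calls were seen, 27 were higher, 4 rose and none fell (10.3% called, against 1.25% of all genes), and the median was 0.14. Lipa, the acid lipase of lysosomes, had 27.6, 27.3 and 26.4 CPM in saline and 44.2, 40.0 and 38.9 CPM in dex (0.59 ± 0.11, adjusted p = 0.0141 by edgeR). Gaa, acid alpha-glucosidase, rose from 154 ± 4.88 to 194 ± 10.5 CPM, and Gnptab, which tags hydrolases for the lysosome, from 86.9 ± 7.70 to 113 ± 4.61 CPM (adjusted p = 0.0396 and 0.0495 by edgeR). Lipa lost its call without saline replicate 1 (0.0837), saline replicate 2 (0.0734) or dex replicate 1 (0.0678), and Gaa and Gnptab lost theirs in 5 of 6 such fits, with adjusted p up to 0.183 and 0.231.

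Lower values in metabolism were small and spread over many genes. Of 75 nuclear genes of oxidative phosphorylation, 61 were lower with a median of -0.11. None was called by edgeR. An unadjusted p under 0.05 was found for 13, all lower (7.69% of all genes were such and lower). DESeq2 called 6, all lower (1.75% of all genes). The list mean, as deviation from the saline mean on the log2 scale, was -0.27, -0.04 and -0.06 in dex replicates 1, 2 and 3 and -0.03, -0.03 and 0.06 in the saline libraries, so that the distance rested mainly on dex replicate 1. Of the protein genes of the mitochondrial genome, all 12 tested were lower with a median of -0.44. None was called by edgeR or DESeq2, 5 had an unadjusted p under 0.05, and their list mean was 0.09, -0.92 and -0.59 in the dex libraries and 0.19, 0.18 and -0.37 in the saline libraries, which overlap. mt-Nd1, a complex I subunit, had 3838, 3661 and 2673 CPM in saline and 3602, 2017 and 2151 CPM in dex (adjusted p = 0.307 by edgeR). Of 43 proteasome subunits, 36 were lower with a median of -0.12 and 1 was called, Psmd7, a lid subunit, from 110.1 ± 1.34 to 88.0 ± 3.02 CPM (adjusted p = 0.0477 by edgeR), a call that was lost in all 6 fits with a library left out (0.0712 to 0.195). Pomp, the proteasome maturation protein, chosen after its values were seen, had 121, 118 and 123 CPM in saline and 78.4, 90.9 and 90.4 CPM in dex (-0.48 ± 0.08, adjusted p = 0.00959 by edgeR; 0.0662 without saline replicate 1). Its dex libraries were all below its saline libraries.

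Of 57 glutathione and antioxidant genes, 35 were lower with a median of -0.12, 3 fell and none rose (5.26% called). Gstm2 had 9.72, 16.5 and 10.6 CPM in saline and 5.25, 3.44 and 4.65 CPM in dex, to be read with its somatic part given above. Gsta4, a glutathione transferase for lipid aldehydes, fell from 41.6 ± 4.02 to 27.7 ± 2.95 CPM, and Txnrd1, the cytosolic thioredoxin reductase, from 137 ± 5.29 to 109 ± 6.70 CPM (adjusted p = 0.0263 and 0.0449 by edgeR). Both were called only without dex replicate 2 when a library was left out, with adjusted p up to 0.139 and 0.208 without saline replicate 2.

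**Figure D5:**
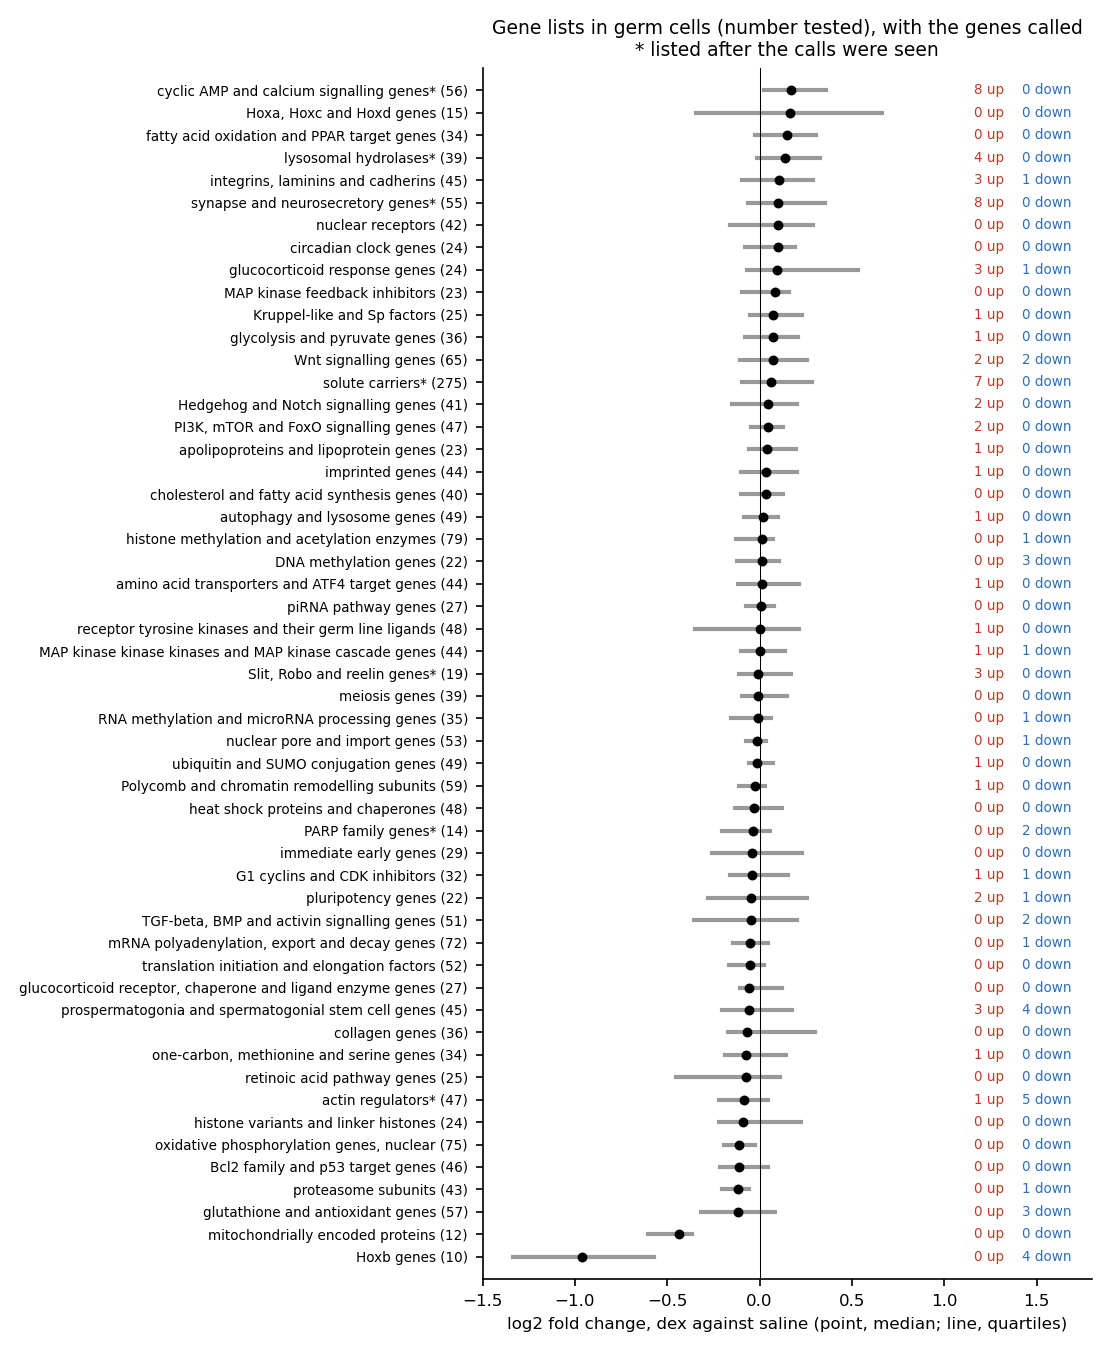
Median (point) and quartiles (line) of the log2 fold change of dex against saline for each gene list other than cell type markers with at least 10 genes tested, ordered by median, with the number tested in brackets and the numbers called higher and lower at the right. An asterisk marks lists drawn up after the calls were seen, whose place in the order reflects that choice. The Hoxb genes lie lowest, and next above them are the mitochondrially encoded proteins at -0.44 with no call.

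Several genes of chromatin and RNA-binding proteins fell. Tnrc18 (ENSMUSG00000039477, chromosome 5, 142724661 to 142817662), a large nuclear protein chosen after its values were seen, had 161, 167 and 187 CPM in saline and 90.9, 103 and 90.3 CPM in dex. It was the fall with the smallest p (-0.86 ± 0.08, adjusted p = 0.000264 by edgeR), with no overlap and no call lost. Ewsr1, an RNA-binding protein also chosen after its values were seen, fell by 0.41 ± 0.08 (adjusted p = 0.0154 by edgeR). Ewsr1 lost its call without saline replicate 1 (0.0545), saline replicate 2 (0.093) or dex replicate 3 (0.0752), and 8.07% of its sequence is shared with other transcripts.

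Parp1, the main poly-ADP-ribose polymerase of the DNA damage response, had 930.2, 1039 and 1044 CPM in saline and 824, 797 and 792 CPM in dex (-0.33 ± 0.07, adjusted p = 0.0263 by edgeR). Parp8, a mono-ADP-ribosyltransferase, fell from 44.2 ± 3.00 to 26.0 ± 4.02 CPM (-0.78 ± 0.13, adjusted p = 0.00792 by edgeR, and 0.0692 without saline replicate 1). Parp1 and Parp8 were the 2 calls among 14 PARP genes (14.3% called, against 1.25% of all genes). That list was drawn up after the calls were seen, so its share describes the choice as well. Parp1 lost its call in 4 of 6 fits with a library left out, up to 0.132 without saline replicate 2. Of 79 histone methylation and acetylation enzymes, only Setd1b was called, a methyltransferase for lysine 4 of histone H3, which had 50.4, 45.4 and 52.2 CPM in saline and 24.4, 31.6 and 35.1 CPM in dex. The dex libraries were all lower (-0.71 ± 0.13, adjusted p = 0.015 by edgeR; 0.0918 without saline replicate 1). Ccnd1, cyclin D1, fell from 159, 161 and 162 CPM to 96.2, 108 and 113 CPM, far outside the spread of the saline libraries (-0.61 ± 0.08, adjusted p = 0.00136 by edgeR) and with each library left out. Its exons overlap those of Oraov1 over 23.4% of their length, a gene with 14.2% of its counts.

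Transcription factors were called in both directions, at a share near that of all genes. Of 1250 genes of annotated transcription factor families tested, 7 rose and 12 fell (1.52% called, against 1.25% of all genes). Gsc (ENSMUSG00000021095, chromosome 12, 104471209 to 104473330), the homeobox factor goosecoid known from the early embryo, had 16.5, 12 and 23.2 CPM in saline and 36.9, 53.9 and 56.4 CPM in dex. The lowest dex library exceeded the highest saline library, at 2.83-fold (1.5 ± 0.20, adjusted p = 0.00217 by edgeR), and soma held at most 0.0845 CPM on average. Of 159 homeobox genes tested, Gsc and Dlx3 rose, and 4 Hoxb genes and Vsx1 fell (4.40% called). Dlx3 had 52.4, 57.9 and 59.9 CPM in saline and 76.1, 75.8 and 77.0 CPM in dex (0.42 ± 0.09, adjusted p = 0.0319 by edgeR), a call lost in 4 of 6 fits with a library left out (up to 0.184 without saline replicate 1). Atoh8, a bHLH factor, rose from 32.7, 41.6 and 42.0 CPM to 62.5, 62.6 and 68.5 CPM, and Hr, the corepressor hairless, from 27.9, 23.0 and 29.1 CPM to 42.0, 56.8 and 50 CPM. Both, chosen after their values were seen, separated fully and kept their calls (0.73 ± 0.11 and 0.89 ± 0.13, adjusted p = 0.00567 and 0.00428 by edgeR). Of 519 zinc finger genes of the C2H2 type, Klf9 rose and Hivep2 fell (0.385% called). Vsx1, a homeobox gene at 4.01 ± 0.842 CPM in saline and 1.68 ± 0.173 CPM in dex, lost its call in all 6 fits with a library left out, and Hivep2, at 96.7 ± 2.95 and 75.1 ± 3.86 CPM, in all but that without saline replicate 3 (adjusted p up to 0.219 and 0.184 by edgeR). Vsx1 and Hivep2 were chosen after their values were seen.

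Further genes with large or abundant changes did not belong to a list with several calls. Ndrg2, a stress-responsive gene of the NDRG family, had 8.36, 5.68 and 14.4 CPM in saline and 25.6, 38.3 and 22.3 CPM in dex (1.59 ± 0.27, adjusted p = 0.0103 by edgeR; 0.0815 without saline replicate 1). The groups did not overlap, and the somatic part was 6.62% in saline and 2.64% in dex. Phlda2, an imprinted gene that limits placental growth, rose from 3.66 ± 0.945 to 8.57 ± 1.36 CPM (adjusted p = 0.0208 by edgeR) and was the only call among 44 imprinted genes. Lgals2, a galectin, and A2m, the protease inhibitor alpha-2-macroglobulin, both rose from a mean of 3.19 CPM, to 7.36 ± 2.04 and 7.0 ± 1.11 CPM (adjusted p = 0.031 and 0.0477 by edgeR). Tagln3, a calponin-like protein of neurons, Fgl1, a fibrinogen-like secreted protein, Spp1, osteopontin, and Irgm1, an interferon-inducible GTPase, fell by 1.32, 1.30, 1.23 and 1.22 on the log2 scale from saline levels of 5.63, 6.25, 9.66 and 5.81 CPM (adjusted p = 0.0403, 0.0344, 0.0344 and 0.0316 by edgeR).

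Of the abundant genes, Taf7l, a germ cell relative of a TFIID subunit, had 348, 356 and 342 CPM in saline and 289.8, 282 and 286 CPM in dex. Its libraries were close within each group (-0.29 ± 0.06, adjusted p = 0.0358 by edgeR). Nudt4, an inositol pyrophosphate hydrolase, rose from 218 ± 21.1 to 292 ± 13.6 CPM, and Spint1, a membrane-bound serine protease inhibitor, from 122 ± 2.12 to 151 ± 2.45 CPM (adjusted p = 0.0165 and 0.0483 by edgeR). Rangap1, the activator of the Ran GTPase in nuclear transport, fell from 194 ± 8.26 to 145 ± 10.7 CPM, and Alyref, an mRNA export adaptor, from 178 ± 7.43 to 135 ± 17.0 CPM, each the only call of its list, of 53 nuclear pore genes and 72 mRNA processing, export and decay genes (adjusted p = 0.0123 and 0.0397 by edgeR). Chd9, a chromatin remodeller and the only call among 59 Polycomb and remodelling genes, rose from 31.3 ± 1.99 to 43.8 ± 0.839 CPM (adjusted p = 0.0346 by edgeR). Apart from Ndrg2, all genes of this group lost their calls in 3 to 6 of the 6 fits that left out 1 library, without saline replicate 1 in each of them, with adjusted p up to 0.223.

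Several lists held no call at all by edgeR at an adjusted p of 0.05. None of 24 circadian clock genes, 42 nuclear receptors, 48 heat shock proteins and chaperones, 29 immediate early genes, 36 collagens, 25 retinoic acid genes, 40 cholesterol and fatty acid synthesis genes, 52 translation factors, 24 histone variants and 46 Bcl2 family and p53 target genes passed. At an unadjusted p under 0.05 these lists held 6, 4, 9, 8, 9, 7, 6, 13, 10 and 7 genes, against 14.7% of all genes tested. DESeq2 called 1, 1, 1, 3, 4, 2, 2, 2, 3 and 3 of them, against 3.63% of all genes.

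Among called genes, the largest fold changes in both directions belonged to a pair of genes that cannot be separated. Gm1140 had 6.74, 9.12 and 6.33 CPM in saline and 0.461, 0.407 and 1.12 CPM in dex (-3.50 ± 0.35, adjusted p = 0.000264 by edgeR), and Gm14692 had 0.306, 0.625 and 0.333 CPM against 0.876, 6.29 and 7.30 CPM (3.51 ± 0.63, adjusted p = 0.0143 by edgeR). All 64-base words of each gene occur in transcripts of other genes, and each is the main partner of the other. Summed, the pair had 7.05, 9.74 and 6.67 CPM in saline and 1.34, 6.69 and 8.42 CPM in dex, which overlap, and both single values are uncertain. The call of Gm14692 was lost without saline replicate 1 (0.107) or dex replicate 3 (0.0752). Sumo2, a ubiquitin-like modifier, rose from 14.8, 17.8 and 34.1 CPM to 132, 114 and 61.9 CPM (2.20 ± 0.28, adjusted p = 0.00136 by edgeR). Saline replicate 3 and dex replicate 3 were the closest, and the groups did not overlap. Of the sequence of Sumo2, 17.6% is shared with other genes, with Gm10241 as the main partner, so its level is uncertain as well. Gm10241, looked up for this reason, had 83.8, 82.9 and 74.6 CPM in saline and 8.11, 30.4 and 48.0 CPM in dex, a difference in the other direction that did not pass the test (-1.49 ± 0.36, adjusted p = 0.0669 by edgeR). All 64-base words of Gm10241 occur in transcripts of other genes, with Sumo2 as the main partner. The rise of Sumo2 therefore cannot be read apart from the lower values of Gm10241, and the sum of both was not tested.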

How the data were processed

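RNA of sorted germ cells (GFP-positive) and somatic cells (GFP-negative) of newborn male mice was sequenced in 3 libraries per cell type and treatment. Per the study's methods, reads were aligned with HISAT2 (v2.0.5) to mm10 (GRCm38) and counted per gene with featureCounts (v1.5.0-p3). Which annotation release was used and how strand was handled is not given in the sources used here. The authors deposited these raw counts for 54532 genes, which were tested, and FPKM values, counts scaled by depth and gene length, which the authors calculated and which served for an alternative. The deposited comparison tables hold the authors' fold changes and p-values and were not used.

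The 6 germ cell libraries were fitted alone with edgeR (4.0.16, in R 4.3.3), without covariates, by the quasi-likelihood F-test with TMM normalization and the default filter on low counts at a minimum count of 10. Benjamini-Hochberg adjustment ran over all 18550 genes tested, and a gene was called at an adjusted p at or under 0.05. The model, its SE and its log2 fold changes came from this fit, and the common biological variation was 14.4%. The unit CPM is the count relative to the library size after TMM over all 12 libraries, and fold values are edgeR's. At these depths a count of 0 allows 3 counts, and such floors cover counting error only. Alternatives used DESeq2 (1.42.0), limma (3.58.1) by voom on counts and by its trend method on log2(FPKM + 0.1), library totals, no filter, a filter of 10 counts in every germ cell library, a fit of all 12 libraries, a replicate block, each library left out, and genes at least as high in saline germ cells as in saline soma. The steps were tested on simulated counts.

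Groups came from the sample titles. Same-numbered dex and saline libraries did not deviate together (r = 0.07, -0.10 and -0.06 over genes, as a description), so the numbers were not treated as pairs. No pair of libraries was identical within counting error, and all were kept.

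The comparison and the gene lists were chosen with earlier results of these data known. Genes were named by a rule: among protein-coding called genes, the 12 top rises and 12 top falls by log2 fold change with a mean log2 CPM of at least 2 and no overlap between groups, the 6 most abundant called genes in each direction by mean FPKM, up to 4 called members of a list in each direction, and fixed markers. The lists of synapse, Slit and reelin, cyclic AMP and calcium, actin, lysosomal hydrolase, PARP and solute carrier genes, and the genes said to be chosen after their values were seen, were added outside that rule, as were the uncalled genes given as values in the glucocorticoid, stem cell and DNA methylation lists. Shared sequence is the percent of 64-base words of a gene's transcripts that occur in transcripts of other genes, and genes above 10% are named as uncertain. Promoters are RefSeq's on GRCm38.p6. Splicing and mitosis genes were not analysed as groups here, and some called genes are not reported by name.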

Additional observations from a re-analysis of the deposited data

How the results depend on the processing

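The number of genes called moved with the method. DESeq2 called 674 genes, leaving out the filter on low counts gave 767, limma on FPKM gave 6, and the replicate block gave 65. Restricted to genes at least as high in germ cells as in soma, 142 were called. Leaving out 1 library gave from 49 genes (saline replicate 1 left out) to 265 (dex replicate 2 left out); saline replicate 2 left out gave 75, dex replicate 3 102 and dex replicate 1 115. Of the 231 genes, DESeq2 shared 227, the replicate block 64 and library totals 201. The cause of these differences was not tested, beyond the fewer libraries or genes that some alternatives hold by construction.

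With library totals the median over all genes went from -0.0027 to 0.02 on the log2 scale. Of 109 called genes named above, none changed direction in any alternative; 48 lost the call with all 12 libraries in 1 fit, 63 with the replicate block, 103 with limma on FPKM, 9 with limma-voom, 8 with library totals and none with DESeq2, which gave 108 of them a value. Between 24 and 74 of these 109 genes lost the call when 1 library was left out. In those fits the log2 fold changes of the germ cell markers ran from -0.051 to 0.089 for Dazl and from -0.176 to 0.057 for Pou5f1, both uncalled, and so changed sign. The filter on low counts left 18550 of the 54532 genes of the table in the test, and of the others nothing is said here.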
